A study of Mus musculus with 2 samples.

Results

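The genes described here are 9 transcription factors that direct the development and function of T cells and NK cells, namely Tbx21, Eomes, Gata3, Id2, Zeb2, Prdm1, Batf, Myb and Bcl6. They were taken by symbol from the deposited gene list and are 9 of its 27998 genes, each with 1 row. Their raw UMI counts, in which each UMI stands for 1 captured mRNA molecule, were summed over T cell subsets and NK cells that were recognised by UMIs of other genes. No member was used to recognise a cell.

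The counts come from 2 scRNAseq libraries of live CD45+ cells sorted from subcutaneous B16 tumors, a mouse melanoma. Both libraries were made from C57BL/6 mice that lack mouse LAIR1 (mLAIR1-/-) and carry human LAIR1 with Vav-cre (VAVcre+/- hLAIR1+/-), a driver active in blood-forming cells and their progeny. Aged 6 to 8 weeks by the labels, the animals received the LAIR1-blocking antibody h219-LLG or the isotype control antibody at 10 mg/kg every 4 days from day 5, for 3 doses, and were euthanized on day 16. LAIR1 is an inhibitory receptor of immune cells that binds collagen. The comparison asks how blocking it changes the immune cells of the tumor. There was 1 library for each antibody, and how many mice each one holds was not stated in the labels or methods, so the spread between mice cannot be told apart from the effect of the antibody. No p-value is given, and every interval below is a 95% interval that covers counting error only.

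T-bet, encoded by Tbx21, and Eomesodermin, encoded by Eomes, are related T-box factors that drive cytotoxic and type 1 programs in NK cells and CD8+ T cells, and Zeb2 acts with T-bet in terminal effector cells. Gata3 specifies T cells and T helper 2 cells and also serves Tregs, while Id2 opposes E-proteins and is needed for NK cells and effector T cells. Prdm1 encodes Blimp-1, which promotes terminal differentiation and represses Bcl6, the factor of follicular helper T cells and germinal center B cells. Batf is an AP-1 family factor of activated T cells, and Myb keeps precursor and stem-like cells, including stem-like CD8+ T cells.

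By the GENCODE vM21 annotation of mm10, the 3 genes of the T-box and Zeb2 group lie at chr11:97098071-97115331 on the minus strand (Tbx21), chr9:118478212-118486132 on the plus strand (Eomes) and chr2:44983632-45117395 on the minus strand (Zeb2). Gata3 lies at chr2:9857078-9890034, Id2 at chr12:25093799-25097140, Prdm1 at chr10:44437177-44528501, Myb at chr10:21124935-21160984 and Bcl6 at chr16:23965052-23988852, all on the minus strand. Batf lies at chr12:85686669-85709087 on the plus strand.

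The promoters are shown for Tbx21 and Eomes, the T-box pair whose levels marked NK cells, and for Myb, which had the lowest ratio between the libraries in the initial gates. Each run is the 250 bases before the RefSeq start (GRCm38.p6), 5′ to 3′ on the strand of the gene, at chr11:97115332-97115581, chr9:118477939-118478188 and chr10:21160985-21161234. Capitals mark matches, on either strand, to the T-box letters TCACAC, to the letters GATAA that GATA factors bind, to the ZEB E-box letters CACCTG or to the AP-1 letters TGACTCA. No match overlapped another.
Tbx21: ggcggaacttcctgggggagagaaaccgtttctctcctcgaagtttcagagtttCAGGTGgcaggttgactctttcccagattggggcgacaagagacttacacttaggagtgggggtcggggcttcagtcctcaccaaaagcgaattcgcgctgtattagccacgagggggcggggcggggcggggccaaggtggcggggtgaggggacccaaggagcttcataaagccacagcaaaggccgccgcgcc
Eomes: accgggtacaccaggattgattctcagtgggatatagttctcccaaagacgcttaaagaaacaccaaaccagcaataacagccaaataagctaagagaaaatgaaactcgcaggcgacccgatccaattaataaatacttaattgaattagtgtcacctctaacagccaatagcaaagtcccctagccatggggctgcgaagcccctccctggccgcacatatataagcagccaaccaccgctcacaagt
Myb: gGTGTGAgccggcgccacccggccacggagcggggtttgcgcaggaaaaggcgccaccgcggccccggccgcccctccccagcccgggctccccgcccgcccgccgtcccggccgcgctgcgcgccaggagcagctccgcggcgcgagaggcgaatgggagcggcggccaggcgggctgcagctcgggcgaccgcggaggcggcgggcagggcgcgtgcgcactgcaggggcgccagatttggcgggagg
Tbx21 held 1 ZEB E-box match, 196 bases before its start, and Myb held 1 T-box match, 249 bases before its start. Eomes held no match to the 4 motifs, which says only that these letters are not in this window. Over the windows of all 9 members, 1 held the T-box letters, 2 the GATA letters, 2 the ZEB E-box letters and 0 the AP-1 letters. Of 32851 RefSeq windows of the same length, 12.3% held TCACAC, 22.6% GATAA, 17.2% CACCTG and 4.46% TGACTCA. The Myb window was 81.2% G and C, against 60.8% for Tbx21 and 46.4% for Eomes.

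The libraries held 8807 barcodes and 48834592 UMIs with h219-LLG and 6133 barcodes and 40339654 UMIs in the control, and they shared 13 barcodes. More barcodes reached 10% mitochondrial UMIs with h219-LLG (15.2%) than in the control (8.17%). After filtering and removal of doublets, 6909 and 5332 cells remained, with medians of 4963 and 5742 UMIs. T cells numbered 3444 and 2629, of which 1412 and 1144 fell in no gate. In each of the populations sized below, the control cells were deeper, so levels are given as CPM, counts per 10 to the power of 6 UMIs of the population, and shares of cells with a UMI are also given after each cell was thinned to 1500 UMIs.

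The populations held 490 CD4 naive cells with h219-LLG and 417 in the control, 98 and 132 CD4 memory cells, 76 and 121 Tregs, 265 and 199 CD8 naive cells, and 85 and 135 NK cells. The names were checked with markers that the gates did not use. Lef1 was found in 94.7% and 93.1% of CD4 naive cells, and Klre1, an NK receptor, in 84.7% and 87.4% of NK cells. Ctla4, an inhibitory receptor of Tregs, was found in 86.8% and 89.3% of Tregs. Summed over 5 such Treg markers, Tregs had 2636 and 3530 CPM and CD4 naive cells 99.3 and 117 CPM. CD4 memory cells had 888 and 1103 CPM of them, and the part of this in the CD4 memory results was not tested. Markers of CD4 memory cells summed to 1200 and 1172 CPM in these cells and to 222 and 237 CPM in CD4 naive cells. Naive markers summed to 1318 and 1141.5 CPM in CD8 naive cells. The CD8 memory gate, with 838 and 461 cells, was mixed by its markers. The 3 memory markers that no gate used summed to 535 and 474 CPM there, against 171 and 140.1 CPM in CD8 naive cells. Naive markers, however, summed to 1326 and 1127 CPM in the cells of the memory gate, near the level of CD8 naive cells. Lef1, a gene of naive cells, had a UMI in 92.5% and 91.1% of these cells, and Gzma, a granzyme, in 3.22% and 7.16%. In the CD8 effector gate (251 and 146 cells), naive markers summed to 1016 and 938.5 CPM, and 5 effector markers that no gate used to 302 and 232 CPM. The same effector markers summed to 20.7 and 23.1 CPM in CD8 naive cells and to 347 and 411 CPM in Tregs. By these sums most of the gate was not clearly effector. Both gates are therefore called broad, and narrow gates that require Ccl5 were added after the data were seen. The narrow CD8 memory gate held 140 and 77 cells, of which 117 and 64 were also in the broad memory gate and 23 and 13 in the broad effector gate. The narrow CD8 effector gate held 48 and 38, all in the broad effector gate, so narrow and broad values share cells. The naive markers summed to 816 and 731 CPM in narrow memory cells and to 362 and 381 CPM in narrow effector cells. The effector markers summed to 1351 and 707 CPM in narrow effector cells. The deposited gene list holds 0 T cell receptor constant genes, so gamma-delta T cells could not be gated by them. T cells with a UMI of Cd163l1 or Il17a and none of Cd4, Cd8a, Cd8b1 or Foxp3 took their place and are called by that rule. Where levels are put in order, the order is that of the initial gates, without the narrow gates and these few cells.

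Tbx21 marked NK cells. Its level was 76.1 CPM (53.0 to 106) under h219-LLG, against 98.2 CPM (77.5 to 123) in the control. Among the initial gates, CD4 memory cells came next in both libraries, at 23.3 and 23.9 CPM, and NK cells exceeded them 3.27-fold (1.69 to 6.73) and 4.11-fold (2.51 to 7.02). Broad CD8 effector cells followed with h219-LLG, at 12.4 CPM, and in the control Tregs, at 18.9 CPM, then broad CD8 effector cells, at 13.1 CPM. Neighbors in this stretch of the order were not separated by their intervals. Within CD8 cells, the narrow effector gate had 36.4 and 30.2 CPM and the narrow memory gate 13.6 and 18.7 CPM, while CD8 naive cells had 0 UMIs in 265 and 199 cells, which allows a level of up to 2.15 and 2.31 CPM at 3 UMIs. A UMI of Tbx21 was found in 31.8% and 40.0% of NK cells and in 0.196% and 0.248% of B cells, taken here as cells that should hold little of it. After thinning, the NK share was 14.3% (7.61 to 23.6) and 12.6% (7.51 to 19.4), and the intervals of the libraries overlapped.

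Eomes had the same leading population, with 302 CPM (254 to 357) in NK cells with h219-LLG and 386.5 CPM (344 to 433) in the control. NK cells exceeded broad CD8 effector cells 7.93-fold (5.94 to 10.7) and 10.6-fold (7.80 to 14.8). Among CD8 cells, the narrow memory gate had 85.6 and 80.0 CPM, or 14.95-fold (7.34 to 35.5) and 17.3-fold (7.53 to 48.9) the level of CD8 naive cells. The narrow effector gate had less Eomes than the narrow memory gate with h219-LLG, at 0.459 of its level (0.243 to 0.802), whereas in the control the ratio was 0.945 (0.570 to 1.52). CD4 cells held little Eomes. There was 1 UMI in 76 Tregs with h219-LLG and 0 in 121 in the control, and CD4 naive cells had 3 and 1. In the CD4 memory cells of the control, 8 of the 9 UMIs came from 1 cell. B cells had 1 and 0 UMIs.

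Zeb2 was again highest in NK cells, at 187 CPM (150 to 231) and 203 CPM (173 to 237). CD4 memory cells had 61.0 and 56.9 CPM, and the narrow CD8 effector gate 72.9 and 60.5 CPM, whereas CD4 and CD8 naive cells had 2 to 5 UMIs each. Zeb2 is also a gene of myeloid cells, which had 782 and 941 CPM, and of plasmacytoid dendritic cells, which had 517 and 402 CPM. A few T cells held many of its UMIs. One control Treg had 20 of 69, and 1 CD4 memory cell in each library had 16 of 34 and 17 of 50. B cells, with 91.6 and 82.9 CPM, also hold this gene, so B cells give no background for it.

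**Figure D1:**
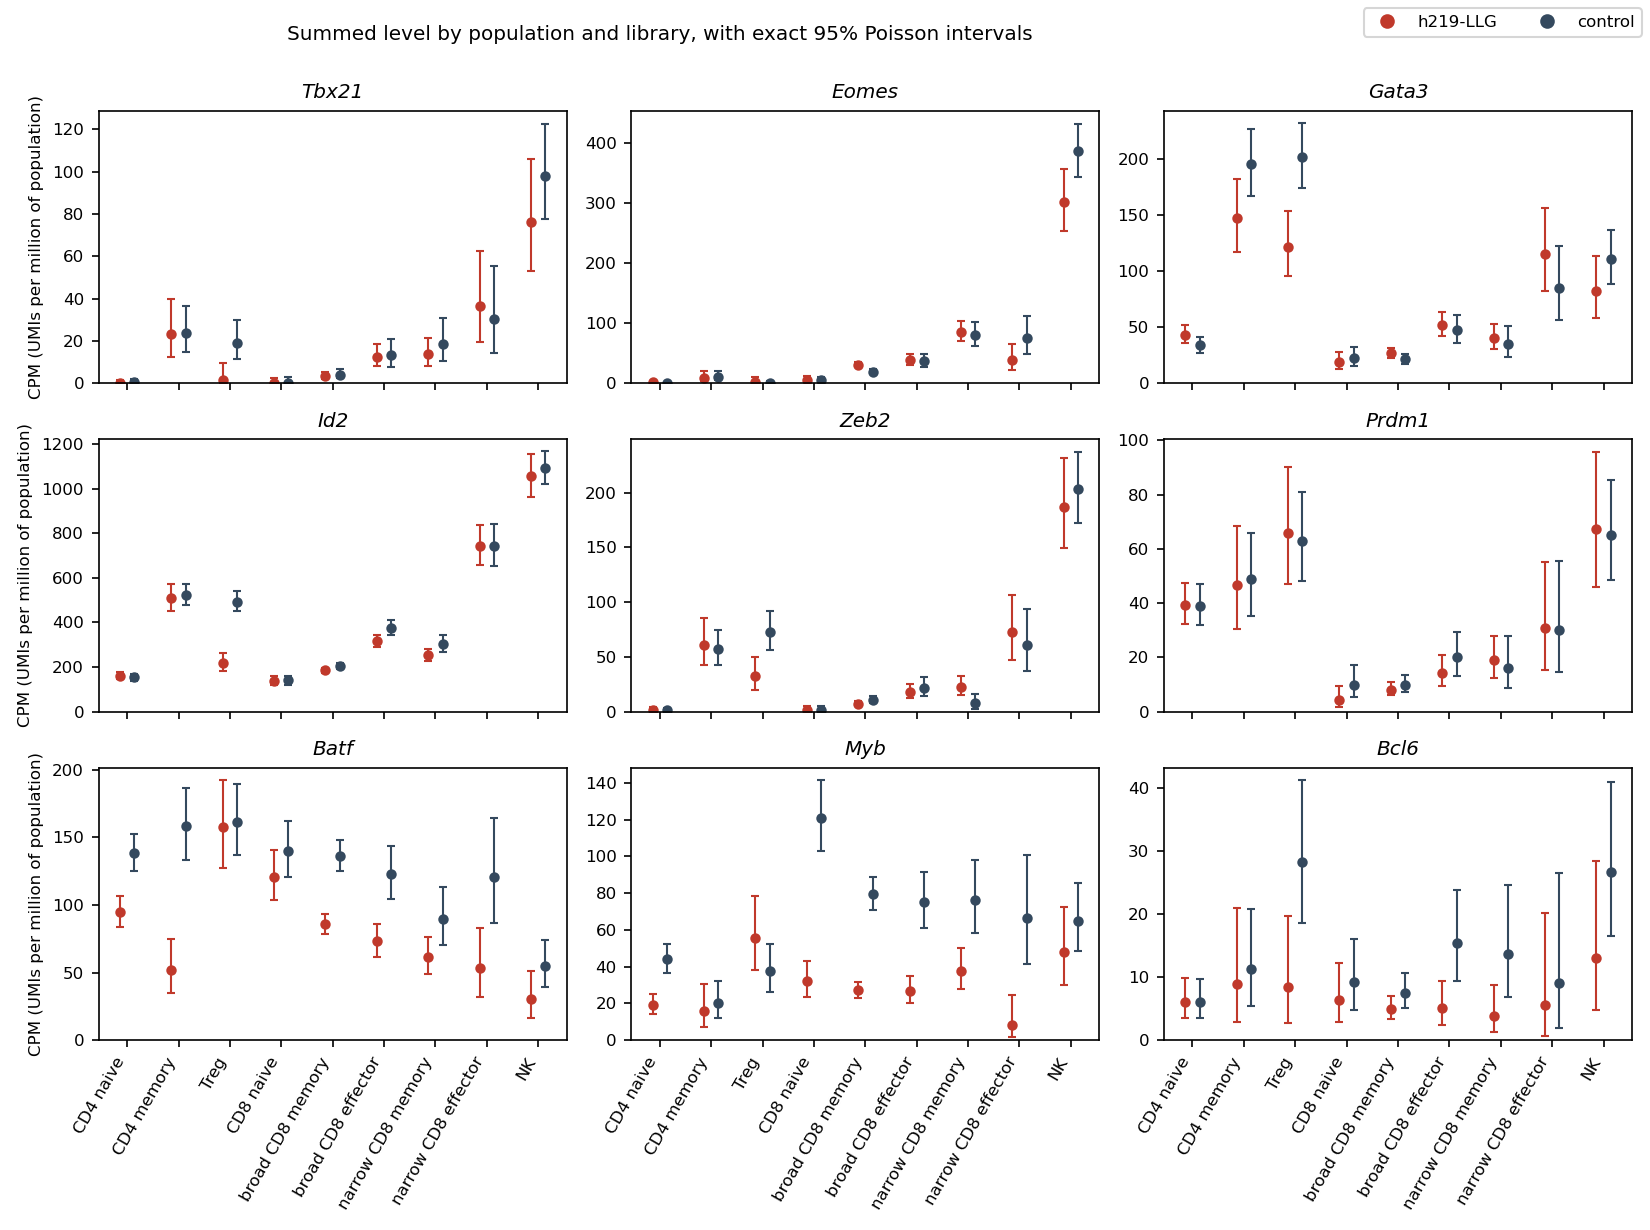
Level of each member (y axis, CPM, from 0) in 9 populations (x axis) of both libraries, h219-LLG in red and control in dark blue. Points are the summed level and bars its exact 95% Poisson interval. Tbx21, Eomes, Id2 and Zeb2 stand highest in NK cells in both libraries, Gata3 in CD4 memory cells and Tregs, and the control points of Myb and Batf stand above those of h219-LLG in CD4 naive cells and in every CD8 gate.

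Id2, the E-protein antagonist, was graded over the populations in both libraries. NK cells had 1055 CPM (963 to 1153) and 1093 CPM (1021 to 1169), and 89.4% and 93.3% of them held a UMI. The narrow CD8 effector gate had 743 and 744 CPM, CD4 memory cells 510 and 523 CPM, and naive CD4 and CD8 cells 137 to 160 CPM. NK cells exceeded narrow CD8 effector cells 1.42-fold (1.22 to 1.66) and 1.47-fold (1.28 to 1.70). Narrow CD8 effector cells exceeded narrow CD8 memory cells 2.93-fold (2.48 to 3.45) and 2.46-fold (2.05 to 2.95). Tregs broke the likeness of the libraries. They stood next to CD4 memory cells in the control, at 494 CPM, and not with h219-LLG, at 220 CPM. B cells held 20.6 and 28.7 CPM of Id2.

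Gata3 led in CD4 memory cells and Tregs. CD4 memory cells had 147 CPM (117 to 183) and 196 CPM (167 to 227), and Tregs had 122 CPM (95.3 to 153) and 202 CPM (174 to 232). These neighbors were not separated in either library. NK cells followed among the initial gates, at 82.7 and 111 CPM. The narrow CD8 effector gate had 115 and 84.6 CPM, or 5.95-fold (3.57 to 10.1) and 3.79-fold (2.17 to 6.60) the level of CD8 naive cells. CD4 naive cells had 43.3 and 33.7 CPM. With h219-LLG they exceeded broad CD8 memory cells, the next in order, 1.64-fold (1.28 to 2.09), and in the control they were not separated from CD8 naive cells (1.51, 0.987 to 2.37). B cells held 6 and 3 UMIs.

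Prdm1 was near the same level in NK cells, Tregs and CD4 memory cells. NK cells had 67.4 CPM (45.8 to 95.7) and 65.1 CPM (48.4 to 85.5), Tregs 66.0 and 63.0 CPM, CD4 memory cells 46.6 and 48.9 CPM, and no neighbors in this order were separated. CD4 naive cells still had 39.4 and 39.0 CPM, which exceeded broad CD8 effector cells 2.73-fold (1.79 to 4.29) and 1.94-fold (1.26 to 3.10). CD8 naive cells had only 6 and 13 UMIs.

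Bcl6, the gene that Blimp-1 represses, was low throughout. Its highest level in the initial gates was 28.4 CPM (18.7 to 41.3), in control Tregs, and B cells had 30.4 and 46.1 CPM. Among all T cells, Prdm1 and Bcl6 UMIs met in 9 of 3444 cells with h219-LLG and 28 of 2629 in the control. Bcl6 was found in 2.63% of the T cells with Prdm1 and 3.10% of those without it with h219-LLG, and in 7.27% and 6.19% in the control. These shares are sparse, and depth moved with them, as the cells with both had medians of 8076 and 7386.5 UMIs against 5761.5 and 6861 in the cells with neither.

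Batf was found in naive as well as experienced T cells. Tregs had 157 CPM (127 to 193) and 162 CPM (137 to 189), but CD8 naive cells had 121 and 140.1 CPM and CD4 naive cells 94.6 and 138 CPM. NK cells were lowest of the initial gates in both libraries, at 30.5 CPM (16.7 to 51.1) and 54.9 CPM (39.7 to 73.9). In the control, the T cell populations of the initial gates spanned 123 to 162 CPM, and no neighbors among them were separated. B cells had 13.0 and 16.7 CPM.

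Myb was highest in CD8 naive cells of the control, at 121 CPM (103 to 141), and exceeded broad CD8 memory cells there 1.52-fold (1.25 to 1.85). With h219-LLG, Tregs stood first. CD8 naive cells had 32.2 CPM (23.5 to 43.1), after Tregs (55.8 CPM, 38.4 to 78.4) and NK cells (47.9 CPM, 29.99 to 72.5), though neighbors in that order were not separated. Of the initial gates, CD4 memory cells were lowest in both libraries, at 16.2 and 20.5 CPM, and the narrow CD8 effector gate had 8.41 CPM with h219-LLG, from 3 UMIs.

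Myb had the lowest ratio between the libraries of the members measured in the initial gates. In CD8 naive cells there were 45 UMIs with h219-LLG and 157 in the control. The Myb ratio in CD8 naive cells, h219-LLG over control, was 0.266 (0.187 to 0.373), which ranked 12 from the lowest among 7173 genes with at least 20 UMIs in these cells. A Myb UMI was found in 10.9% and 29.7% of the cells, and after thinning in 3.79% (1.83 to 6.86) and 15.1% (10.4 to 20.8), intervals that did not overlap. One control cell held 24 of the 157 UMIs, and without the cell with the most UMIs in each library the ratio was 0.286 (0.197 to 0.409).

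Myb was also lower in the other CD8 gates and in CD4 naive cells. In CD4 naive cells, 53 UMIs (19.1 CPM) stood against 124 (44.0 CPM), a ratio of 0.435 (0.309 to 0.605) that ranked 92 of 8474 genes. Broad CD8 memory cells had 27.1 and 79.4 CPM, a ratio of 0.342 (0.281 to 0.414). Broad CD8 effector cells had 26.8 and 75.0 CPM (0.357, 0.25 to 0.505). In the narrow gates, whose cells the broad gates also hold, the ratios were 0.497 (0.335 to 0.734) for memory and 0.127 (0.0242 to 0.421) for effector cells, the latter from 3 UMIs against 22. T cells in no gate had a ratio of 0.377 (0.320 to 0.442). In Tregs the ratio was 1.48 (0.892 to 2.44), in NK cells 0.736 (0.425 to 1.24) and in CD4 memory cells 0.789 (0.312 to 1.85), and each of these intervals included 1. B cells, where Myb was far lower (3.60 and 8.00 CPM, from 28 and 58 UMIs), had a ratio of 0.450 (0.276 to 0.718). The part of T cell RNA in these B cell counts was not tested.

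Batf differed most in CD4 memory cells, which had 52.0 CPM (34.8 to 74.7) under h219-LLG, against 158 CPM (133 to 187) in the control. The ratio, from 29 and 139 UMIs, was 0.329 (0.213 to 0.494) and ranked 54 of 6424 genes. A UMI was found in 20.4% and 46.2% of these cells, and after thinning in 3.09% (0.642 to 8.77) and 17.4% (11.4 to 25.0). Batf was lower with h219-LLG in 7 of 7 populations of the initial gates. The ratio was 0.684 (0.582 to 0.802) in CD4 naive, 0.629 (0.556 to 0.711) in broad CD8 memory and 0.595 (0.471 to 0.751) in broad CD8 effector cells. It was 0.863 (0.696 to 1.07) in CD8 naive cells, 0.973 (0.744 to 1.27) in Tregs and 0.555 (0.281 to 1.04) in NK cells, where the intervals included 1. In the CD4 memory cells, where Batf differed most, B cell markers that no gate used (Cd79b, Cd74 and H2-Aa, 0 of 3 at 0) summed to 490 CPM with h219-LLG and 1518 CPM in the control, and 4 myeloid markers to 169 and 305 CPM. Their part in the result was not tested.

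**Figure D2:**
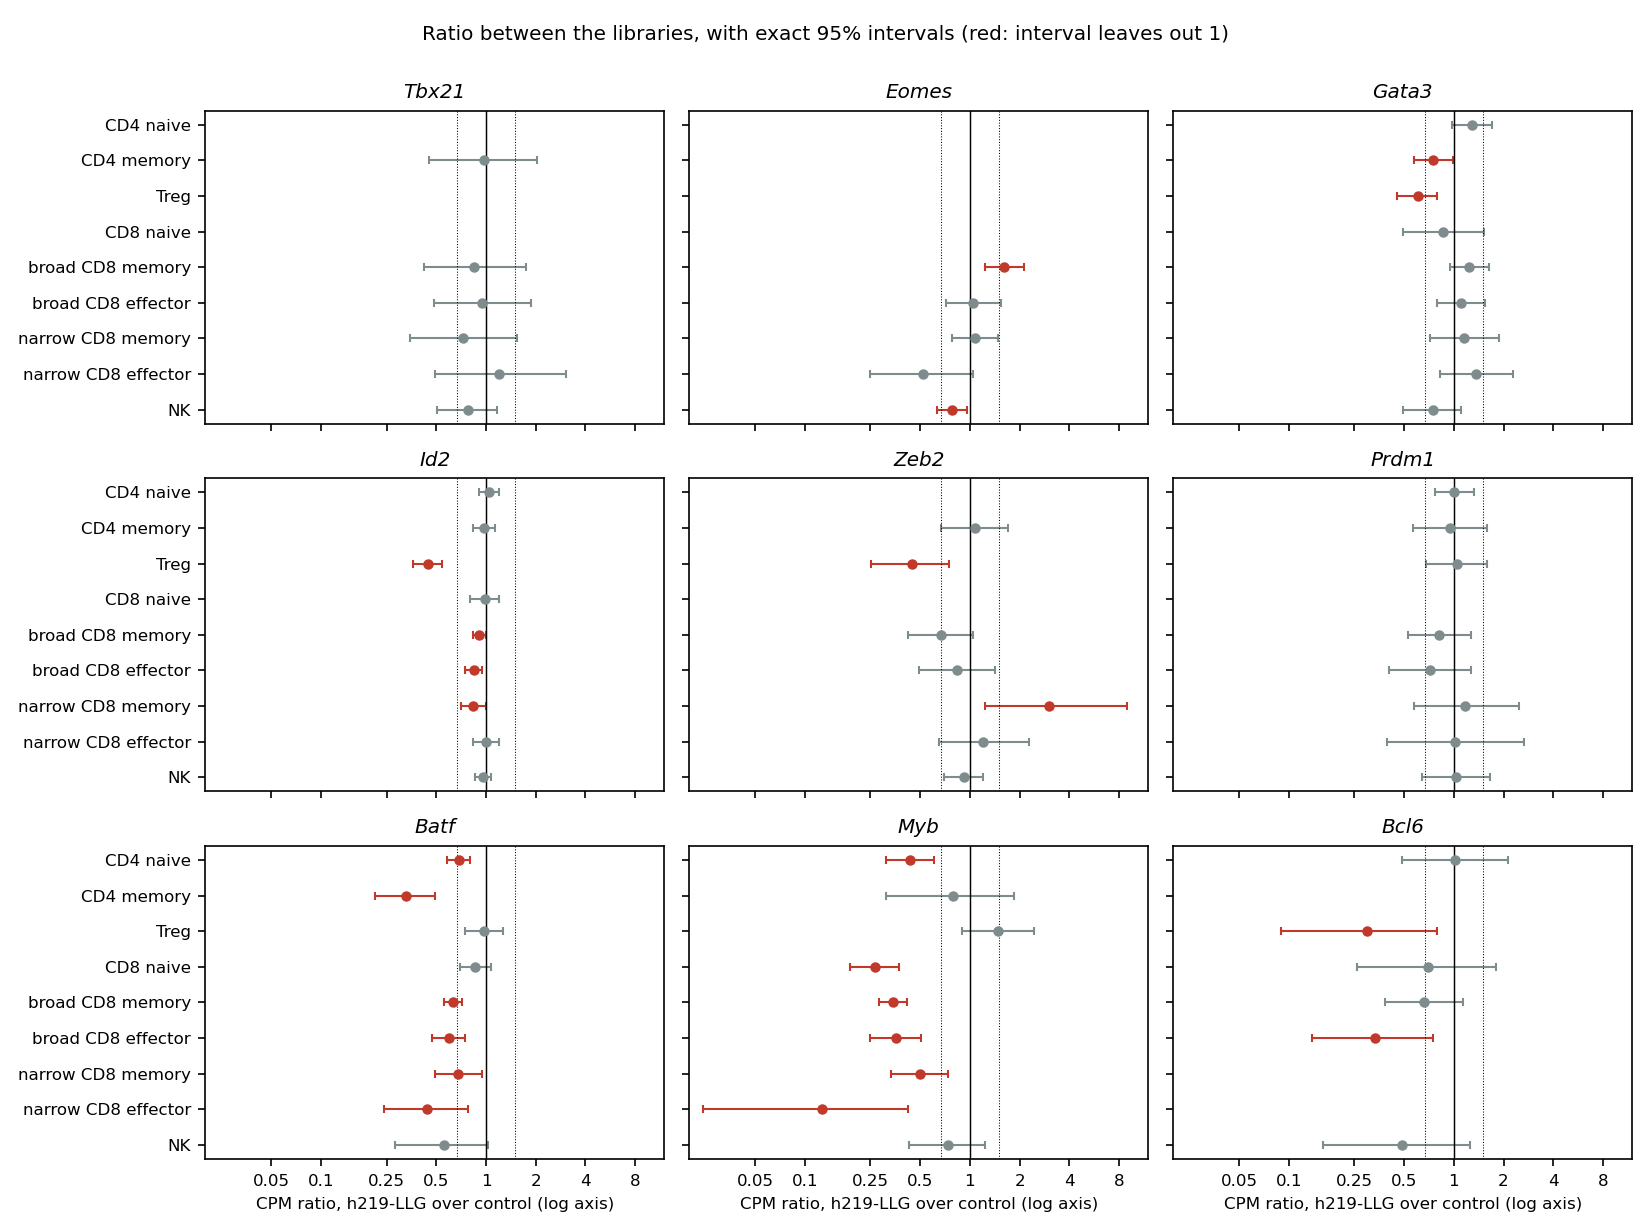
Ratio of the CPM with h219-LLG over the control (x axis, log scale) for each member in 9 populations (y axis), with exact 95% intervals from the split of the UMIs. Red marks intervals that leave out 1, the dotted lines stand at 1.5-fold in either direction, and populations with too few UMIs have no point. Myb lies left of 1 in CD4 naive cells and every CD8 gate, Batf in CD4 memory cells at 0.329, and Id2 is far from 1 only in Tregs, at 0.446.

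In Tregs, 4 of 7 measured members were lower past 1.5-fold with h219-LLG, beside 13.3% of all 6794 genes measured there. A gene was measured where it had at least 20 UMIs over both libraries. Id2 had 220 CPM (184 to 261) under h219-LLG, against 494 CPM (450 to 540.3) in the control, intervals that did not overlap, for a ratio of 0.446 (0.364 to 0.542), rank 225 of 6794 genes. Gata3 stood at 122 against 202 CPM, a ratio of 0.604 (0.454 to 0.796). Zeb2, with 19 UMIs against 69, had a ratio of 0.444 (0.252 to 0.746), and Bcl6, with 5 against 27, one of 0.298 (0.0897 to 0.786). In the control, 1 Treg held 20 of the 69 Zeb2 UMIs. A Zeb2 UMI was found in 11.8% (5.56 to 21.3) and 16.5% (10.4 to 24.4) of Tregs, intervals that overlap. Tbx21 had 1 UMI (1.69 CPM) against 18 (18.9 CPM), too few to be measured by that rule, with a ratio of 0.0895 (0.00215 to 0.567). The only Treg with a Tbx21 UMI in the h219-LLG library held 58522 UMIs in all. Prdm1, Batf and Myb had ratios of 1.05, 0.973 and 1.48, with intervals that included 1.

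The Id2 result in Tregs rests on the exclusion of cells with UMIs of other lineages. Without it the ratio was 0.823 (0.727 to 0.930), and with any such UMI excluded it was 0.407 (0.306 to 0.532). The B cell markers that no gate used summed to 1264 and 1141 CPM in Tregs, with 0 of 3 at 0, and those of myeloid cells to 183 and 125 CPM, with 1 and 0 of 4 at 0. Their part in the results was not tested.

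Eomes was higher with h219-LLG in one population and lower in another. Broad CD8 memory cells had 180 UMIs (30.5 CPM) with h219-LLG and 76 (18.9 CPM) in the control, a ratio of 1.61 (1.23 to 2.14). After thinning, an Eomes UMI was found in 3.34% (2.23 to 4.79) and 1.735% (0.752 to 3.39) of these cells, intervals that overlap. In the narrow memory gate, where its level was higher in both libraries, the ratio was 1.07 (0.781 to 1.48). A UMI was found in 39.3% and 28.6% of the narrow memory cells, and after thinning in 11.4% (6.68 to 17.9) and 6.49% (2.14 to 14.5), which overlap. In NK cells Eomes was lower with h219-LLG, with a ratio of 0.782 (0.635 to 0.959), not past 1.5-fold and rank 1289 of 6096 genes. After thinning, an Eomes UMI was found in 27.4% (18.2 to 38.2) and 37.0% (28.9 to 45.8) of NK cells, intervals that overlap. The narrow effector gate had 39.2 and 75.6 CPM, a ratio of 0.519 (0.2495 to 1.04).

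The remaining members showed smaller or less certain differences. Tbx21 was lower in the 4 initial populations where it could be counted, with ratios from 0.775 in NK cells to 0.977 in CD4 memory cells and intervals that all included 1. Gata3 had a ratio of 0.752 (0.571 to 0.984) in CD4 memory cells and 1.29 (0.974 to 1.70) in CD4 naive cells. Outside Tregs, the Id2 ratio in the initial gates ranged from 0.842 (0.746 to 0.951) in broad CD8 effector cells to 1.04 (0.912 to 1.19) in CD4 naive cells. The Id2 ratio was 0.7165 (0.579 to 0.885) in B cells and 0.8455 (0.787 to 0.909) in myeloid cells. Prdm1 had ratios of 0.718 to 1.05 in 6 of the initial populations, and each interval included 1. In narrow CD8 memory cells, Zeb2 had 30 UMIs with h219-LLG and 6 in the control, a ratio of 3.03 (1.24 to 8.91). There 1 cell held 9 of the 30, and with any other-lineage UMI excluded the interval ran from 0.932 to 8.84. B cell markers, in a cell type that itself holds Zeb2, summed to 435 and 41.2 CPM in these cells, and myeloid markers to 105 and 57.5 CPM, and their part was not tested. Bcl6 in broad CD8 effector cells had 10 and 20 UMIs, a ratio of 0.333 (0.139 to 0.746). B cell markers summed to 169 and 374 CPM in these cells and myeloid markers to 39.1 and 114 CPM, with 0 at 0, while B and myeloid cells themselves hold Bcl6, and their part was not tested. The Bcl6 ratio was 0.661 (0.557 to 0.783) in B cells and 0.8655 (0.672 to 1.12) in myeloid cells.

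The members were set against all genes of each population. Beside the 4 of 7 in Tregs, broad CD8 memory cells had 4 of 9 members lower past 1.5-fold (7.42% of 9548 genes) and 1 of 9 higher (11.2%), and broad CD8 effector cells had 3 of 9 lower (10.5% of 8071). Elsewhere 1 or 2 members were lower, with 1 of 6 in CD4 naive cells (7.13% of 8474), 1 of 7 in CD4 memory cells (11.7% of 6424), 1 of 5 in CD8 naive cells (10.1% of 7173) and 2 of 9 in NK cells (11.4% of 6096). In the narrow gates, 1 of 8 members was lower and 1 of 8 higher among memory cells (11% and 14.5% of 6903 genes), and 3 of 8 were lower among effector cells (15.6% of 4316). Over all genes, the share higher past 1.5-fold was 13.2% in CD4 naive, 14% in CD4 memory, 11.4% in CD8 naive and 14.8% in broad CD8 effector cells, 15% in Tregs, 12.8% in NK cells and 18.5% in narrow CD8 effector cells, where 0 members were higher. One member is a large share of so few, so the single genes carry these counts.

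The median log2 ratio of the measured members was -0.73 in Tregs, -0.37 in NK cells, -0.29 in broad CD8 memory cells and 0.02 in CD4 naive cells, while that of all genes lay between 0.01 and 0.07 in the 9 populations. Over the 7 initial populations, 52 pairs of a member and a population could be measured. Of these, 40 were lower with h219-LLG, beside 46% of all 52580 pairs of a gene and a population, and 16 were lower past 1.5-fold, beside 9.94%. Only 1 was higher past 1.5-fold, beside 13.1%. Of the 16, Batf, Myb and Bcl6 gave 4 each, Zeb2 2, Gata3 and Id2 1 each, and Tbx21, Eomes and Prdm1 0. Pairs of the same gene come from the same 2 libraries and are not separate observations. The interval left out 1 in 18 of the 52, beside 21.1% of all pairs, so intervals of counting error alone leave out 1 for many genes between these libraries.

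**Figure D3:**
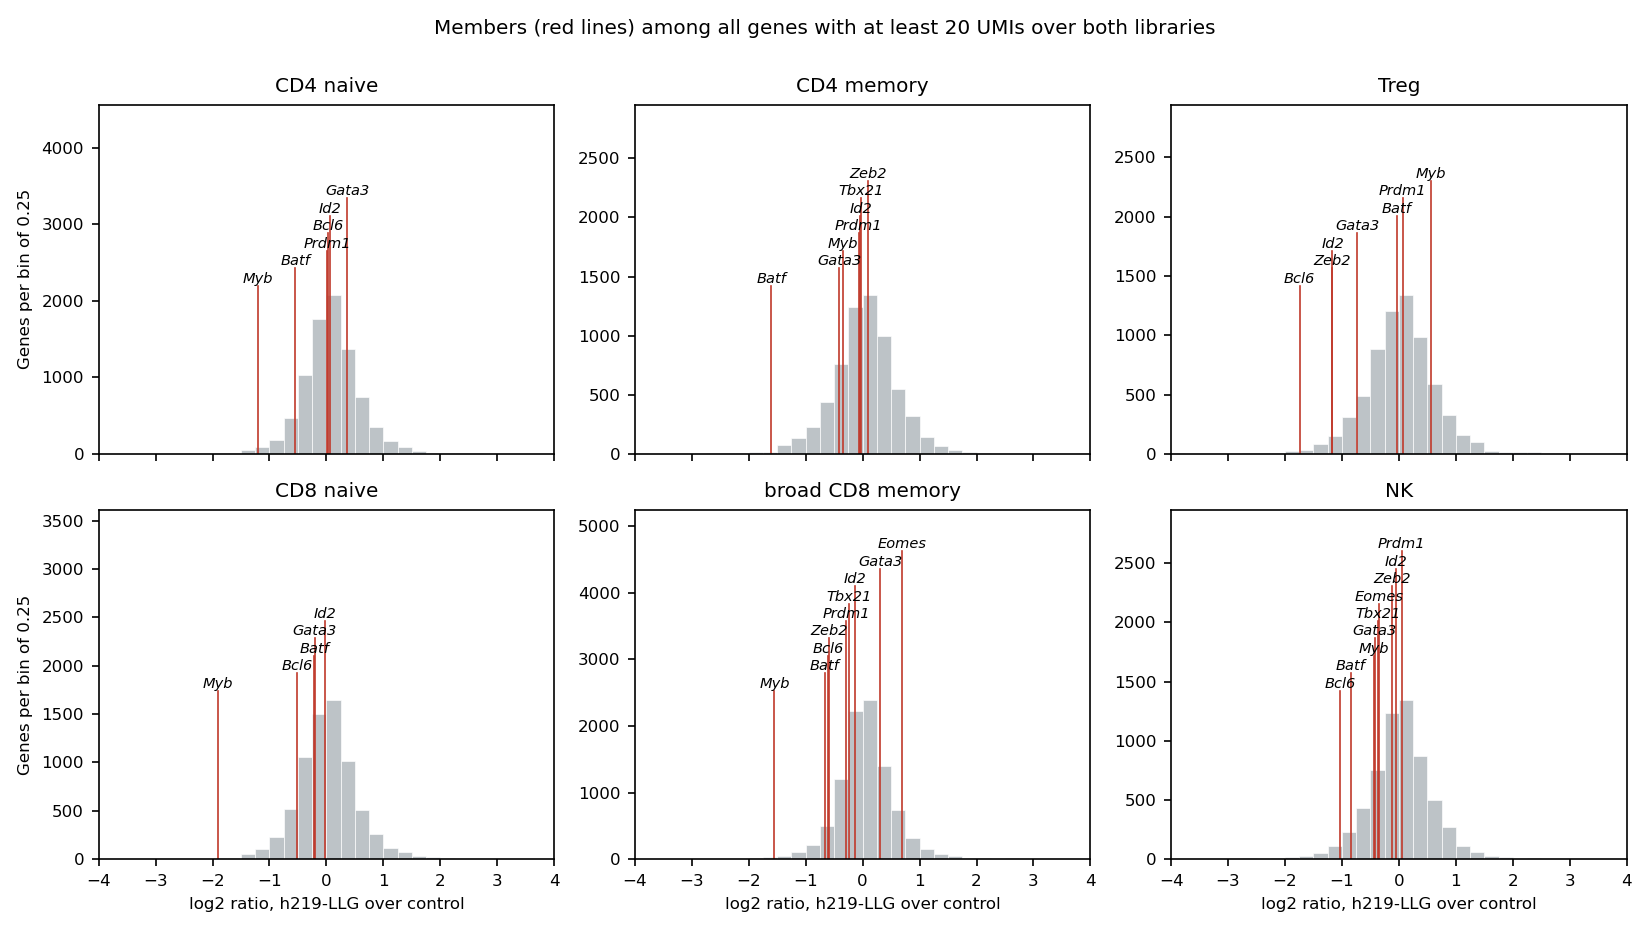
Distribution of the log2 ratio of h219-LLG over control (x axis) over all genes with at least 20 UMIs in each of 6 populations (gray bars, y axis, genes per bin of 0.25), with the measured members as red lines. Myb is in the far left tail in CD8 naive cells at -1.91, Batf in CD4 memory cells at -1.60, and Bcl6, Zeb2 and Id2 lie left of most genes in Tregs.

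**Figure D4:**
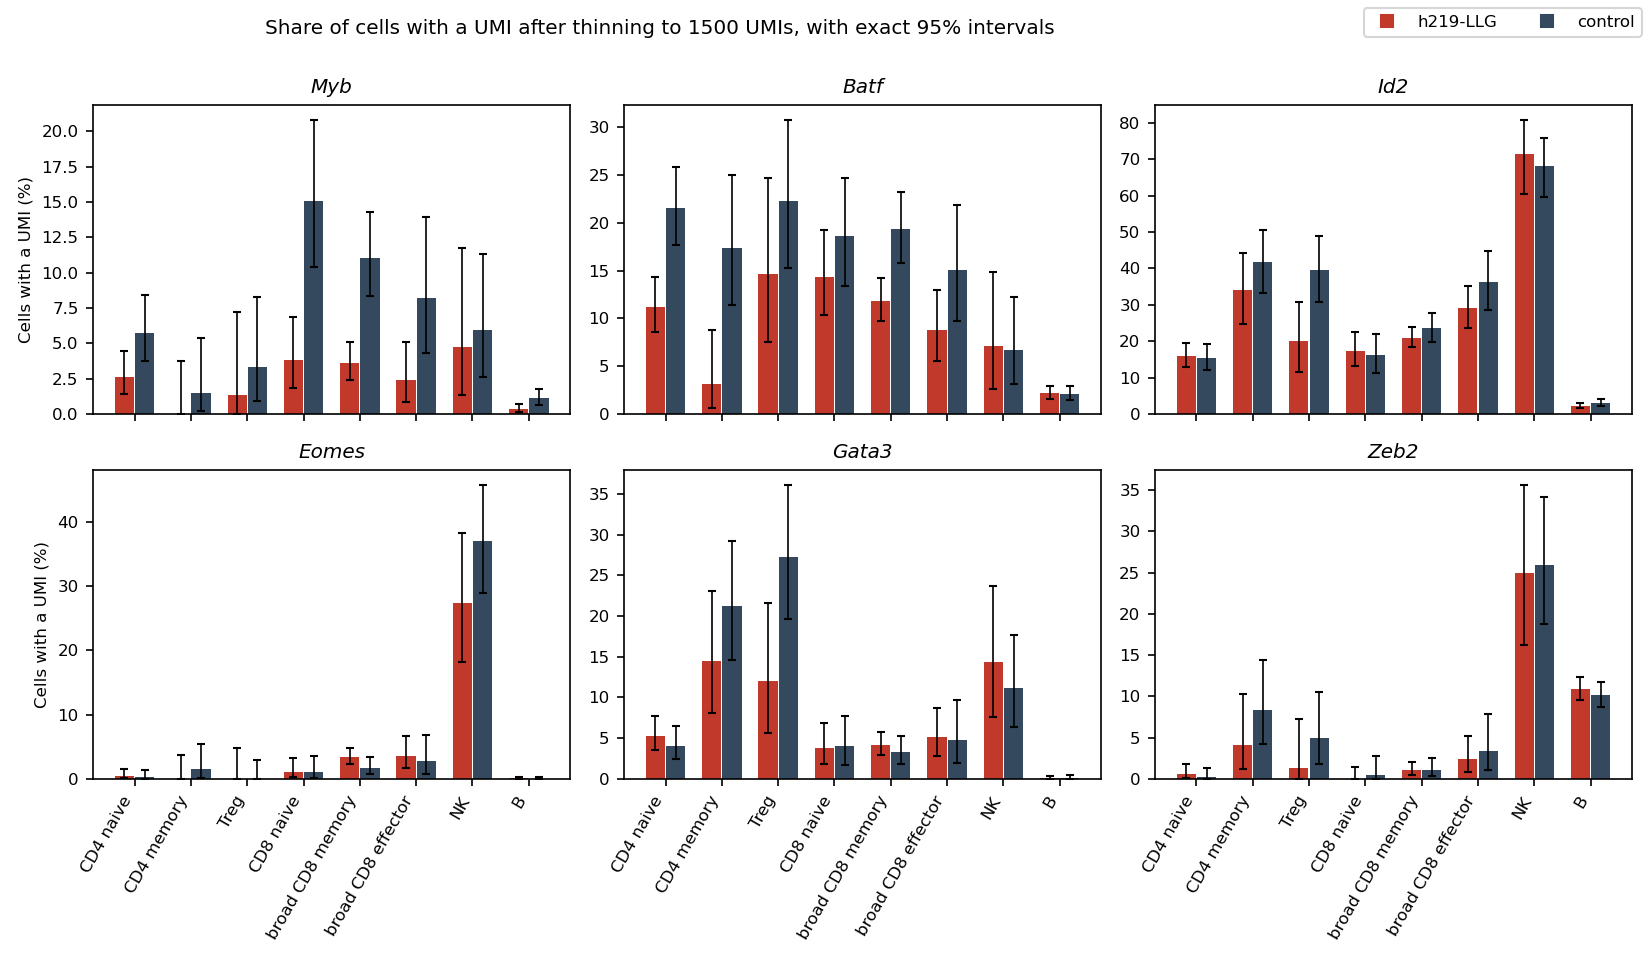
Share of cells with at least 1 UMI (y axis, percent, from 0) of 6 members after every cell was thinned to 1500 UMIs, in 7 populations and in B cells (x axis), with h219-LLG in red and the control in dark blue. Bars show the share and whiskers its exact 95% binomial interval. Myb in CD8 naive cells (3.79% and 15.1%) and Batf in CD4 naive cells (11.2% and 21.6%) differ with no overlap of the whiskers, those of Id2 in Tregs (20% and 39.7%) end next to each other at 30.8% and 30.9%, and the T-box gene Eomes is found in 27.4% and 37.0% of NK cells.

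Of 30 other lineage transcription factors listed for comparison, 24 to 28 could be measured in a population, and more were lower than higher past 1.5-fold with h219-LLG in each of the 9 populations. The median log2 ratio of the list ran from -0.38 in CD4 memory cells to -0.12 in NK cells. Tregs had 8 of 28 lower (13.3% of all genes) and 1 higher. Their lowest ratios were those of Tox2, a factor of exhausted and helper T cells, at 0.254 (0.0482 to 0.864) from 3 and 19 UMIs, and Rora, a factor of tissue and IL-17 programs, at 0.337 (0.273 to 0.412) from 116 and 555. The highest were Irf8 at 1.69 (1.09 to 2.62) and Tcf7, the factor of naive and resting T cells, at 1.497 (1.09 to 2.06). CD8 naive cells had 8 of 27 lower (10.1% of all genes) and 0 higher, the lowest being Irf8 at 0.258 (0.0749 to 0.721) and Rora at 0.310 (0.174 to 0.529). The highest there were Maf at 1.35 (0.589 to 3.22) and Klf2, which maintains quiescence and homing, at 1.34 (1.25 to 1.43).

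CD4 naive cells had 9 of 26 of these factors lower (7.13% of all genes) and 0 higher, with Irf8 at 0.192 (0.0972 to 0.350) and Irf4, a partner of Batf, at 0.332 (0.261 to 0.420), and with Hopx at 1.36 (0.706 to 2.65) and Tox at 1.33 (1.10 to 1.59) as the highest. Irf4 was also lower in CD4 memory cells, at 0.448 (0.269 to 0.719), where 8 of 28 factors were lower (11.7% of all genes) and Id3, another E-protein antagonist, was lowest at 0.236 (0.108 to 0.460). Runx3, which serves cytotoxic T cells, was highest in CD4 memory cells at 1.41 (1.07 to 1.84), then Maf at 1.26 (1.08 to 1.47). NK cells had 2 of 25 lower (11.4% of all genes) and 1 higher, the lowest being Gfi1 (0.533, 0.153 to 1.52) and Rora (0.662, 0.458 to 0.941). Hopx and Bach2 were highest in NK cells, at 1.59 (1.14 to 2.23) and 1.41 (0.892 to 2.21). In narrow CD8 memory cells, 6 of 25 were lower (11% of all genes), with Rora at 0.183 (0.113 to 0.287) and Nr4a1, an early gene of antigen receptor signaling, at 0.446 (0.337 to 0.589). In narrow CD8 effector cells, 7 of 24 were lower (15.6% of all genes) and 1 higher, with Irf4 at 0.258 (0.0748 to 0.720) and Zeb1, the relative of Zeb2, at 0.287 (0.170 to 0.469).

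A further 22 genes were listed as known targets or genes of the programs of the members, such as Ifng for Tbx21 and Cd27 for Eomes. In narrow CD8 effector cells, 8 of the 11 measured were higher past 1.5-fold with h219-LLG, 1 of them Gzmb, which the gate itself used, and 1 was lower, beside 18.5% and 15.6% of all 4316 genes. B cell markers summed to 650 CPM with h219-LLG and 51.4 CPM in the control in these cells (0 of 3 at 0), and myeloid markers to 61.7 and 314 CPM (1 and 0 of 4 at 0), and their part was not tested. Tnfrsf9, a costimulatory receptor, had a ratio of 15.8 (5.10 to 79.0) from 51 and 3 UMIs, and Prf1, which encodes perforin, 8.04 (2.46 to 41.5) from 26 and 3. The lowest were Il7r at 0.507 (0.390 to 0.657) and Cd27 at 1.05 (0.660 to 1.68). NK cells had 2 of 12 higher (12.8% of all genes) and 0 lower. Klrg1, a receptor of mature cells, had a ratio of 2.21 (1.49 to 3.31) and Sh2d1a 1.64 (1.19 to 2.27), while Cd27 had 0.825 (0.562 to 1.19) and Il12rb2 0.943 (0.631 to 1.39).

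In Tregs, 6 of 11 of these genes were lower and 2 higher, beside 13.3% and 15% of all genes. Il10 had a ratio of 0.131 (0.0258 to 0.412) and Ifng 0.439 (0.185 to 0.938). The highest ratios were those of Gzma, with 58 UMIs in 1 cell against 1 UMI, and Gzmb, at 1.68 (1.29 to 2.19). CD4 memory cells had 4 of 12 lower and 1 higher, beside 11.7% and 14% of all genes. Il1r2, a decoy receptor of Treg and activated T cells, had 0 UMIs against 46, and Cd27 had a ratio of 0.451 (0.267 to 0.732). Gzmb and Tnfrsf9 had the highest ratios there, at 1.69 (0.983 to 2.90) and 1.39 (0.877 to 2.21). In narrow CD8 memory cells 3 of 8 were lower (11% of all genes), led by Ifng at 0.535 (0.350 to 0.815) and Klre1 at 0.596 (0.413 to 0.861), and 0 were higher.

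Immediate early and heat shock genes, which respond to stress and cell isolation, also differed between the libraries. In CD4 memory cells, where Batf was lower, the heat shock gene Hspa1b had a ratio of 0.0666 (0.0351 to 0.116), and in narrow CD8 effector cells 6 of 6 immediate early and heat shock genes were lower past 1.5-fold, beside 15.6% of all genes. Hspa1a in Tregs had a ratio of 0.0963 (0.0472 to 0.176). In CD8 naive cells, where Myb was lower, Jun had a ratio of 2.72 (2.38 to 3.13), with 1 of 4 of these genes higher and 1 lower, beside 11.4% and 10.1% of all genes. Median mitochondrial shares were 4.30% with h219-LLG and 3.49% in the control in CD8 naive cells, 3.69% and 2.92% in Tregs, and 3.58% and 2.89% in CD4 memory cells. The part of these differences in the results was not tested.

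In single NK cells, Tbx21 and Eomes UMIs met in 19 of 85 cells with h219-LLG and 40 of 135 in the control. Eomes was found in 70.4% of the NK cells with Tbx21 and 60.3% of those without it with h219-LLG, and in 74.1% and 66.7% in the control. Zeb2 was found in 57.4% of NK cells with Eomes and 29.0% of those without it with h219-LLG, against 52.1% and 41.5% in the control. In narrow CD8 effector cells the T-box pair met in 1 of 48 and 1 of 38 cells. In narrow CD8 memory cells it met in 9 of 140 and 6 of 77. The NK cells with both T-box UMIs had medians of 4847 and 5953 UMIs against 4157 and 3890 in those with neither. For Eomes and Zeb2, the medians were 5084 and 5300 UMIs with both against 4351 and 4794.5 with neither. The 29.0% came from 9 cells, and the part of depth in these shares was not tested.

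The pattern over the 16 values of 8 populations in 2 libraries was compared with that of 7303 genes with at least 200 UMIs, by Pearson's r of log2(CPM + 10). The values share libraries and depth, and r is a description. They include the 14 and 9 T cells with Cd163l1 or Il17a UMIs. The highest Prdm1 value, 119.5 CPM in those control cells, came from 7 UMIs, 6 of them in 1 cell. The highest Bcl6 value, 34.1 CPM in the same cells, came from 2 UMIs. Genes close to Tbx21 were Il18rap (r = 0.96) and Litaf (0.95), and those closest to Eomes were Samd3 (0.98), Ifitm10 (0.96) and Klra7 (0.96). Zeb2 was closest to Plekha2 (0.97), Il18rap (0.96) and Iqgap1 (0.96), Id2 to Serpina3g (0.95), Cdc42ep3 (0.95) and Unc119b (0.94), and Gata3 to Ndfip1 (0.94), Smap1 (0.93) and Eea1 (0.93). Prdm1 was closest to Tes (0.93), Usmg5 (0.91) and Ngfrap1 (0.90), Batf to Ephx1 (0.91), Id3 (0.89) and Slain1 (0.89), Myb to Nedd4l (0.90), Sfn (0.89) and Toe1 (0.88), and Bcl6 to Sesn2 (0.93), Sar1a (0.89) and Kdm2b (0.89). Among the members themselves, Tbx21 and Zeb2 were most alike (0.94), followed by Id2 and Zeb2 (0.88) and Id2 and Tbx21 (0.82), and Batf and Id2 were most opposed (-0.62).

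The T cells with Cd163l1 or Il17a UMIs numbered 14 with h219-LLG and 9 in the control. Id2 was the member with the most UMIs there, 56 and 17, or 760 and 290 CPM. Gata3 had 5 and 3 UMIs, and Eomes and Myb had 0 in both libraries. Prdm1 had 1 and 7 UMIs, and no ratio is drawn from so few cells.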

How the data were processed

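Live CD45+ cells sorted from B16 tumors of 1 h219-LLG and 1 control group were profiled by droplet scRNAseq. The UMI counts were deposited by the authors as raw whole numbers per gene and cell, and the submitters' processing notes name Cell Ranger 5.0.0 and mm10. The gene list holds 0 T cell receptor constant genes, so the planned gamma-delta gate could not be applied.

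Cells needed 200 genes, 500 UMIs and a mitochondrial share below 10%. Doublet scores came from 2 simulated doublets per cell (2000 variable genes, 30 principal components). The neighbor number was 20, raised in proportion to the simulated doublets added. The cells with the highest scores, 0.8% per 1000 barcodes, were removed. Cells with more than 1 UMI of B cell genes or more than 2 of myeloid or of melanoma genes were left out. T cells had at least 2 UMIs of Cd3d, Cd3e and Cd3g, and NK cells had none of Cd3d and Cd3e and at least 2 of Ncr1 and Klrb1c. Tregs had Foxp3, and other T cells were divided by Cd4 or Cd8. Naive cells had UMIs of genes of resting cells, Ccr7 among them, and none of Cd44, S100a4, Cxcr3, Cxcr6, Ccl5, Nkg7 and Il2rb, of which memory and effector cells had at least 2, in CD4 cells more than of the resting-cell genes. CD8 memory cells also had UMIs of the latter. Some genes of the gates and lists are not reported here. CD8 effector cells also had Gzmb, Pdcd1, Havcr2 or Cxcr6, and the narrow gates required at least 2 Ccl5 UMIs. Counts were summed per library and population and given as CPM with exact Poisson intervals, shares with Clopper-Pearson intervals, and ratios with the exact binomial interval of the split. With 1 library per group no test was made. Genes with at least 20 UMIs were measured, and a 1.5-fold difference was counted. All 9 members were named, and of the other lists the 2 highest and 2 lowest ratios in the populations described. The members and lists were chosen with earlier results of these data known. The code was tested on simulated data. Alternatives covered filters, gates, thinning, and TMM scaling in edgeR 4.0.16. Python 3.11.15, numpy 2.4.6 and scipy 1.17.1 were used.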

Additional observations from a re-analysis of the deposited data

Results flagged for a closer look

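Members that moved in opposite directions under the same comparison are given here as values, and the difference between their ratios was not tested. Eomes had a ratio of h219-LLG over control of 1.61 in broad CD8 memory cells and 0.782 in NK cells, where it was not past 1.5-fold. Zeb2 had a ratio of 0.444 in Tregs and 3.03 in narrow CD8 memory cells, the latter from 30 UMIs against 6.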

How the results depend on the processing

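Of 895 member ratios recomputed under the alternatives, 862 stayed within the counting interval of the reported value and 33 moved outside it. A change of direction was counted only for ratios reported past 1.5-fold with an interval that left out 1, and 0 of these changed direction. Crossings of 1 by the other ratios were not counted. The Myb ratio in CD8 naive cells ranged from 0.228 to 0.307 and was below 1 in 14 of 14 settings. With 200 to 2500 genes and under 5% mitochondrial UMIs, Eomes in broad CD8 memory cells moved to 2.22 and Id2 in Tregs to 0.345. With any other-lineage UMI excluded, Zeb2 in Tregs moved to 0.206, and with no exclusion of other lineages Id2 in Tregs moved to 0.823. With cells thinned to 1500 UMIs, Batf moved to 0.136 in CD4 memory cells and 0.531 in CD4 naive cells, Eomes in NK cells to 0.610, and the pairs whose interval left out 1 numbered 11, against 18 as reported. With a fold of 2, 10 pairs were past it, against 17 past 1.5-fold. The causes were not tested, other than the lower counts that thinning leaves and the stricter fold. The alternative gate on Trdc could not be run, since the gene list holds 0 T cell receptor constant genes. No paired analysis was possible because each group has 1 library. With 1 library per antibody, the spread between mice is unknown, and genes with few UMIs, such as Tbx21 and Bcl6, are limited by depth.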

Other observations

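In the 1412 and 1144 T cells that fell in no gate, Batf had 81.4 CPM with h219-LLG and 131.5 CPM in the control, a ratio of 0.619 (0.561 to 0.683), and Bcl6 had 5.91 and 11.7 CPM, a ratio of 0.507 (0.350 to 0.726). Id2 and Gata3 had ratios of 0.943 (0.883 to 1.01) and 1.01 (0.880 to 1.16) in the same cells. Over all T cells, Eomes had 352 and 203 UMIs, a ratio of 1.56 (1.31 to 1.86), and Tbx21, its relative, had 95 and 122 UMIs, a ratio of 0.701 (0.530 to 0.924). The 2 T-box genes thus stood on opposite sides of 1 over the same cells. The cells in this sum differ in their subset make-up between the libraries, and the part of that in the ratios was not tested.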
